A study of Mus musculus with 4 samples.

Results

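The genes described here carry glucose into the cell and turn it into lactate: the facilitative glucose transporters of the Slc2a family, every enzyme of glycolysis from hexokinase to pyruvate kinase, the enzymes that set the regulator fructose 2,6-bisphosphate, and the lactate dehydrogenases. They were chosen by name, as 33 gene symbols looked up in the count table, which holds 23377 genes. Of these, 32 had a row, and Pkm2 had none, since the pyruvate kinase gene is listed as Pkm. The filter on low counts kept 28 members among 12001 genes tested, and left out Slc2a4, Slc2a12, Hk3 and Ldhd.

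RNA with a poly(A) tail was sequenced from mouse cancer-associated fibroblasts (CAFs), the fibroblasts that live within a tumour. The group called resistant here holds 2 libraries of CAFs labelled as belonging to resistant tumours (RES4), and the group called normal holds 2 libraries of CAFs labelled as belonging to normal tumours (WTA). The series asks how lactate from tumour cells bears on resistance to therapies that target MET and EGFR. No label gives a mouse strain, an age, a sort, a drug or a dose. The libraries of a group are called biological replicates, but nothing says that they came from separate animals or cultures, so the p-values speak only of the spread among them.

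The resistant libraries held 2845237 (replicate 1) and 2785936 reads (replicate 2), the normal ones 3948066 and 5558541. The cell type label was checked against markers. All 9 tested fibroblast markers of a list of 10 were higher in the resistant libraries. The list summed to 7326 to 7665 CPM there (reads of a gene relative to the scaled size of its library), against 2847 to 3427 CPM. Its genes were not alike in reads before scaling. Pdgfra had 2942 and 2401 reads in resistant against 120 and 44 in normal libraries, and Dcn 243 and 346 against 3 and 1. Col1a1 had 4439 and 4640 against 4764 and 5733 reads. All 6 tested Schwann cell and neural crest markers of another 10 were lower in the resistant libraries. That list summed to 10.3 CPM in each resistant library and to 1253 and 1110 CPM in the normal libraries. In the normal libraries Sox10 had 745 and 821 reads and Ngfr 1990 and 2747. The markers thus did not by themselves bear out the fibroblast label of the normal libraries, and the name CAFs there follows the labels. Of the defining markers of epithelial, immune, muscle and fat cells, Epcam, Cdh1, Ptprc, Ckm, Myod1 and Adipoq had no read in any library. The same lists each held 1 gene called higher, except that of muscle: the keratin gene Krt19 (120 and 174 against 26 and 38 reads), the lysozyme gene Lyz2 (20 and 21 against 2 and 7) and the fatty acid carrier gene Fabp4 (41 and 67 against 4 and 1). The part of such cells in the differences was not tested. The kind of cell and the tumour label therefore cannot be told apart in any difference below. In bulk RNA, more cells of a type and more RNA per cell cannot be told apart either.

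Glucose enters most cells through GLUT proteins, encoded by Slc2a genes, and is trapped by hexokinase as glucose 6-phosphate. Phosphofructokinase-1 makes the committed step, and its strongest activator, fructose 2,6-bisphosphate, is made and removed by the bifunctional enzymes of the Pfkfb genes. Several steps are shared by enzymes from related genes that differ in kinetics and in the tissue where they prevail, for example the brain and muscle forms of enolase. Fibroblasts in tumours have often been described as glycolytic, and many genes of the pathway are known targets of hypoxia-inducible factors and of MYC.

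Of the 28 tested members, 18 were higher and 1 was lower in resistant tumour CAFs with edgeR's quasi-likelihood test at an adjusted p under 0.05. Over all genes tested, 15.5% were called higher and 13.9% lower. The median log2 fold change was 0.92 over the tested members and -0.0036 over all genes tested. Scaled ranges of the groups were apart for 25 of the 28 members, where 64.7% of all genes tested had such ranges. The largest upward differences lay in Slc2a3, Aldoc, Eno3, Eno2, Pfkfb3, Pfkm, Pfkp and Pfkl. Those 8 genes had more reads, before any scaling, in both resistant libraries than in either normal library, although the resistant libraries were the shallower ones. Of all genes tested, 11.9% did so. The most densely read enzymes, from Gpi1 to Ldha, all stood close to a log2 fold change of 0.9.

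**Figure D1:**
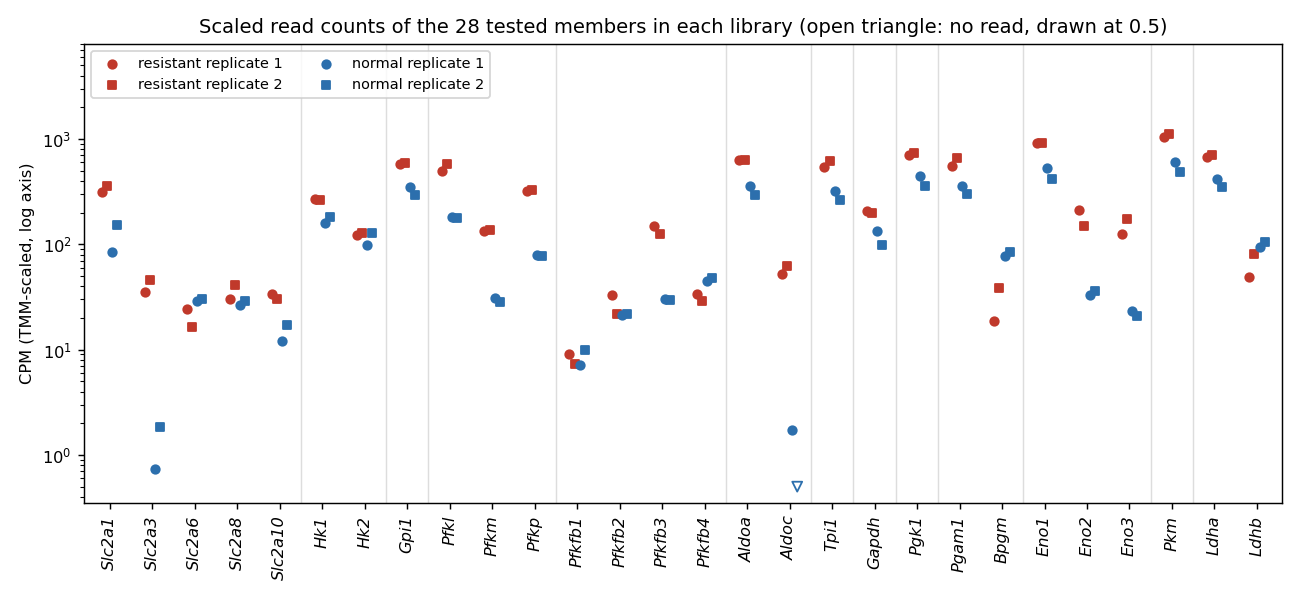
Scaled read counts in CPM (log axis) of the 28 tested members, ordered along the pathway, with 1 point per library; red marks resistant and blue marks normal tumour CAFs, circles replicate 1, squares replicate 2 and an open triangle a library with no read. Slc2a3, Aldoc, Eno2, Eno3, Pfkfb3 and the Pfk genes show the widest gaps between the colours, and Bpgm has its blue points above its red ones.

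Of the 5 tested glucose transporters, Slc2a1 and Slc2a3 rose and the other three were not called. Slc2a1, which encodes GLUT1, the widespread basal transporter, had 827 and 976 reads in resistant against 344 and 903 reads in normal tumour CAFs. It reached 336 ± 30.8 CPM (SD, n = 2) in the former and 119 ± 47.2 CPM in the latter, and rose by 1.501 ± 0.302 (SE) in log2 units (adjusted p = 0.00241). The normal libraries lay apart from each other, at 85.2 and 152 CPM, and the call was lost when normal replicate 1 was dropped (1.08, adjusted p = 0.0887). Slc2a3, which encodes GLUT3, a transporter of high affinity best known from neurons, had 92 and 124 reads against 3 and 11 reads. The groups were far apart, with a log2 difference of 4.85 ± 0.56 (adjusted p = 4.97e-05).

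Slc2a10, which encodes GLUT10, had 88 and 83 reads in resistant against 49 and 102 reads in normal tumour CAFs, and its log2 fold change of 1.12 ± 0.42 did not pass (adjusted p = 0.0625). Scaled, its resistant libraries were both above its normal libraries. Slc2a6 and Slc2a8, which encode the intracellular transporters GLUT6 and GLUT8, had 64 and 45 against 118 and 180 reads, and 79 and 112 against 108 and 172 reads. Their log2 fold changes were -0.54 ± 0.41 and 0.35 ± 0.40, neither past the test. Slc2a4, the insulin-responsive transporter of muscle and fat, had at most 2 reads in a library. Slc2a12 had at most 4 reads.

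Shares of each step were computed per library from reads per kilobase of transcript, so that genes of different length could be set side by side; they do not depend on the scaling between libraries. With 2 libraries against 2, the exact two-sided permutation test cannot give a p below 0.333, so shares are described by their values and by whether the groups overlap. The leading gene of a step is the one with the highest mean of scaled reads per kilobase over the 4 libraries. In all 8 steps with more than 1 member, the share of the leading gene lay apart between the groups. Ranges apart are common here: the scaled levels of 64.7% of all genes tested were so. Shares were not computed for other gene families, so the 8 have no like background. Counting error alone (95% Wilson interval of the read share, carried to the per-length scale) was at most 4.49 percentage points to either side for a leading gene. For Pfkfb4, which had the largest share of its step in the normal libraries, it was at most 4.78 points. Slc2a1 made up 68.5% and 69.7% of transporter reads per kilobase in resistant against 46.5% and 58.3% in normal tumour CAFs. The share of Slc2a6 was 8.08% and 4.90% against 24.3% and 17.7%, and that of Slc2a3 was 6.27% and 7.29% against 0.334% and 0.585%. The share of Slc2a8 was 10.1% and 12.4% against 22.6% and 17.2%, although its own level was not called. A share depends on all genes of its step, and the summed level of the step was 2.19 times that of the normal libraries.

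Hexokinase showed no call. Hk1, the housekeeping form bound to mitochondria, had 708 and 725 reads in resistant against 640 and 1071 reads in normal tumour CAFs, with a log2 fold change of 0.66 ± 0.25 (adjusted p = 0.0635). It passed without resistant replicate 1 (0.66, adjusted p = 0.0394). Hk2, the inducible form often high in tumours, had 320 and 353 against 401 and 766 reads, a log2 fold change of 0.14 ± 0.30, and its scaled ranges overlapped. Its value was -0.0016 with library totals alone as scaling. Hk3, a form of blood cells, had 2 reads in all, both in normal replicate 1. Hk1 carried 74.0% and 72.6% of hexokinase reads per kilobase in resistant against 67.1% and 64.3% in normal tumour CAFs, and Hk2 nearly all of the rest.

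**Figure D2:**
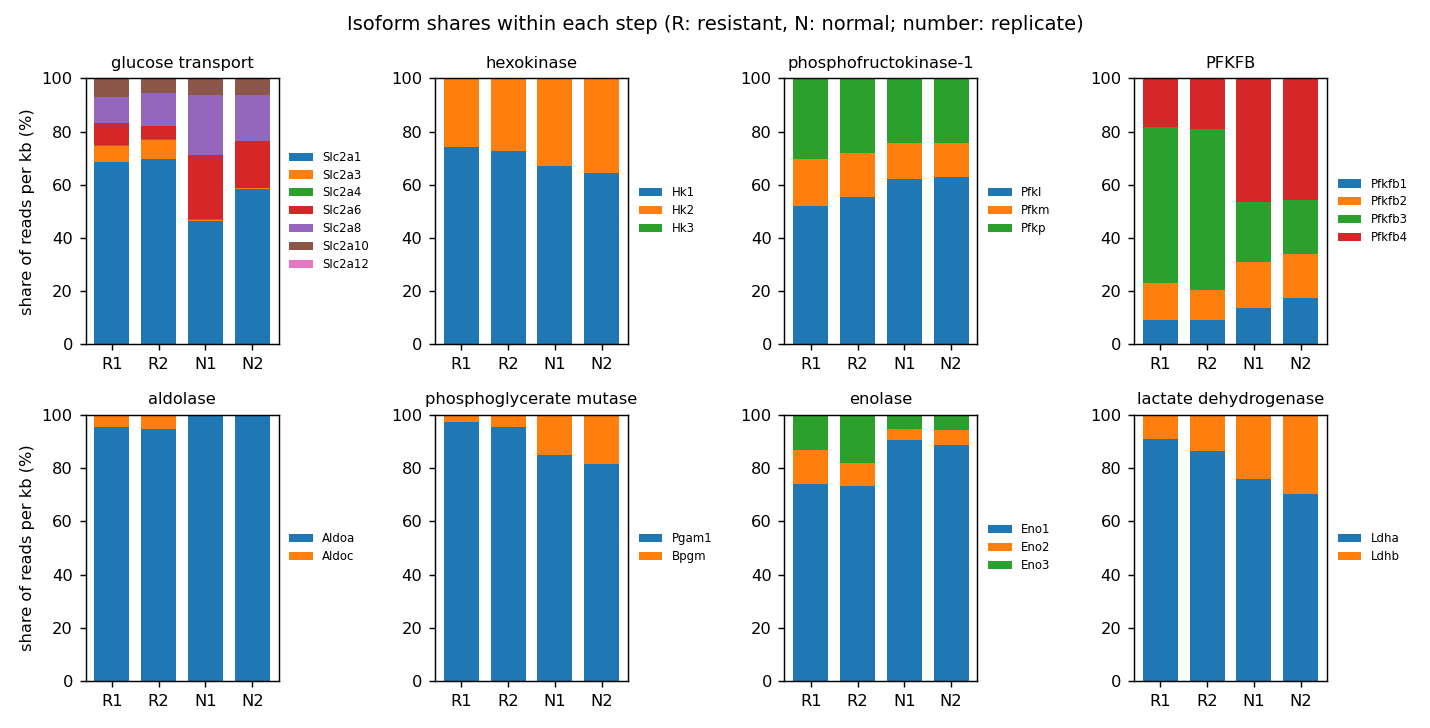
Stacked bars give, for each library, the share of each gene in the summed reads per kilobase of its step, in percent, with resistant replicates (R1, R2) left of normal replicates (N1, N2). In the panel of the Pfkfb genes, Pfkfb3 fills 58.7% and 60.5% of the resistant bars and Pfkfb4 46.4% and 45.6% of the normal bars.

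All 3 genes of phosphofructokinase-1, the committed step, rose. Pfkl, the liver form, had 1306 and 1590 reads in resistant against 733 and 1066 reads in normal tumour CAFs, and rose by 1.58 ± 0.23 in log2 units (adjusted p = 2.89e-04). Pfkm, the muscle form, had 349 and 371 against 124 and 167 reads and rose by 2.19 ± 0.33 (adjusted p = 3.57e-04). Pfkp, the platelet form, had 847 and 897 against 318 and 459 reads and rose by 2.06 ± 0.26 (adjusted p = 8.82e-05). In none of these genes did any resistant library have as few reads as a normal library. Summed per kilobase, the step reached 270 ± 18.4 CPM per kilobase in resistant and 77.4 ± 1.32 in normal tumour CAFs, 3.49 times as much. Pfkl led in every library but less so in resistant tumour CAFs, with 51.8% and 55.2% against 62.1% and 62.9%. Pfkp took 30.2% and 28.05% against 24.3% and 24.4%, and Pfkm 17.9% and 16.7% against 13.6% and 12.8%.

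The Pfkfb genes encode enzymes with a kinase and a phosphatase side that set fructose 2,6-bisphosphate. Pfkfb3, whose product is known for strong kinase activity, had 394 and 343 reads in resistant against 122 and 177 reads in normal tumour CAFs. It rose from 30.01 ± 0.308 CPM to 138 ± 17.0 CPM, by 2.20 ± 0.34 in log2 units (adjusted p = 3.58e-04). Pfkfb4 had 89 and 79 against 182 and 286 reads, and its log2 fold change of -0.57 ± 0.38 did not pass (adjusted p = 0.296), though its scaled ranges were apart. Pfkfb1, the liver form, had 24 and 20 against 29 and 59 reads and a log2 fold change of -0.06 ± 0.48. Pfkfb2, the heart form, had 86 and 59 against 86 and 130 reads and 0.33 ± 0.41. Neither passed, and the scaled ranges of both overlapped.

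The gene with the largest share of this step was not the same in the groups. In resistant tumour CAFs Pfkfb3 held 58.7% and 60.5% of the reads per kilobase and Pfkfb4 18.2% and 19.2%. In normal tumour CAFs Pfkfb4 held 46.4% and 45.6% and Pfkfb3 22.6% and 20.5%. The difference in the Pfkfb3 share was 38.0 percentage points, and it lay between 37.0 and 39.1 without any single library. These genes were sparsely read, at 0.0176 to 0.0540 reads per base of transcript, and the sum of the step had 593, 501, 419 and 652 reads.

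Promoters of this pair and of Slc2a1 are printed because the pair changed place as the gene with the largest share and Slc2a1 led its own step. They are the 250 bases before each annotated start, from RefSeq on GRCm38.p6, 5′ to 3′ along the gene. Capitals mark ACGTG on either strand, the letters at the core of many sites bound by hypoxia-inducible factors; in CACGTG the matches of the strands overlap.
Pfkfb3 upstream start, chr2:11553930-11554179, minus strand: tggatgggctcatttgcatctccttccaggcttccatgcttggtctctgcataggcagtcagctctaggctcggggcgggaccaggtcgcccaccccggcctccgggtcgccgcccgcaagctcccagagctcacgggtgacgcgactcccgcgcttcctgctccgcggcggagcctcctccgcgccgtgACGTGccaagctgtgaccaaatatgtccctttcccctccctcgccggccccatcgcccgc
Pfkfb3 downstream start, chr2:11502091-11502340, minus strand: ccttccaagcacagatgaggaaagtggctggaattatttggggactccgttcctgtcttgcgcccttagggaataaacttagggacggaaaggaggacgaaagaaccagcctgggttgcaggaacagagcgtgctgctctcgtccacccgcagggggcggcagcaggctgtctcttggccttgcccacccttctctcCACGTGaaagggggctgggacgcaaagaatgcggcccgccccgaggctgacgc
Pfkfb4, chr9:108991652-108991901, plus strand: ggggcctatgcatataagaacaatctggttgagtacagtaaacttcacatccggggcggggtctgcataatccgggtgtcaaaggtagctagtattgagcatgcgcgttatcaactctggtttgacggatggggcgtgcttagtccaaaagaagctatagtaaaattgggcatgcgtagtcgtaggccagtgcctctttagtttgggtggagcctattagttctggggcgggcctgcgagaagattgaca
Slc2a1, chr4:119108495-119108744, plus strand: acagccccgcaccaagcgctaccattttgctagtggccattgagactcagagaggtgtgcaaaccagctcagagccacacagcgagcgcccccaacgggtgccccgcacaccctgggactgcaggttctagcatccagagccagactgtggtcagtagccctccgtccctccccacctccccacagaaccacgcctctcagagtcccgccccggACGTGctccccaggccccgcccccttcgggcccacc
Such letters stood in both Pfkfb3 windows and in the Slc2a1 window, and not in the Pfkfb4 window. The search took ACGTG alone, so gcgtg, which the Pfkfb4 window holds, was not marked. The lack of capitals in that window is a lack of ACGTG only. ACGTG also stood in 2 of 3 windows of Pfkfb2 and in that of Hk2, neither of them called. Other genes that led a step were not printed: Aldoa, Pgam1 and Ldha had a window with ACGTG, and Hk1, Pfkl and Eno1 had none. The printed windows therefore do not stand for leading genes, or for called and uncalled genes, at large. Of 47 windows of 30 members, 16 held ACGTG, or 34.0%, against 16.6% of all 32851 windows in the set. Among members called higher the share was 39.3% of 28 windows, and among the others 26.3% of 19. Windows of a gene can overlap, as in Aldoa, where 2 windows share 1 match. By gene, 12 of 30 members had a match, 8 of 17 called higher and 4 of 13 others. The 8 were Pfkfb3, Pfkm, Slc2a1, Aldoa, Pgk1, Pgam1, Pkm and Ldha. Aldoc, Eno2, Eno3, Pfkl and Pfkp, which had some of the largest upward differences, had no match in any window. Gpi1, Tpi1, Gapdh and Eno1 had none either, and Slc2a3 had no window in the set. A match is a string of letters, not a shown binding site.

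In the aldolase and enolase steps the sparser genes showed the wide differences. Aldoc, best known from brain, had 138 and 169 reads in resistant against 7 and 0 reads in normal tumour CAFs, and rose by 6.21 ± 0.79 in log2 units (adjusted p = 1.04e-04). The size of this difference hangs on the few normal reads: it was 10.7 without normal replicate 1, 4.98 without normal replicate 2 and 7.21 with limma-voom. Aldoc made up 4.45% and 5.13% of aldolase reads per kilobase in resistant against 0.266% and 0% in normal tumour CAFs, where 0 of 1744 reads allows up to 0.172% of the step's reads. Aldoa, the muscle and general form, held the rest.

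Eno2, the neuronal form of enolase, had 560 and 407 against 134 and 214 reads and rose by 2.39 ± 0.33 (adjusted p = 1.78e-04). Eno3, the muscle form, had 327 and 477 against 94 and 125 reads and rose by 2.76 ± 0.36 (adjusted p = 1.11e-04). The groups did not overlap in either gene. Eno1, the general form, still led, with 74.3% and 73.3% of enolase reads per kilobase in resistant against 90.7% and 88.7% in normal tumour CAFs. Eno3 stood at 13.1% and 18.1% against 5.15% and 5.78%, and Eno2 at 12.6% and 8.62% against 4.11% and 5.53%. Of 5 neuron markers only Tubb3 was tested, and it was lower, with 44 and 62 against 189 and 293 reads. Of the other neuron markers, Stmn2 had 7 and 7 against 1 and 1 reads, Syt1 1 and 3 against 0 and 0, Snap25 3 and 1 against 0 and 1, and Rbfox3 0 and 1 against 3 and 0. Of 9 muscle markers 2 were tested and neither was called. Summed muscle markers were at 6.85 and 10.6 CPM in resistant and 11.4 and 9.59 CPM in normal tumour CAFs. The part of neurons or muscle cells in the enolase values was not tested.

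Bpgm was the only member called lower. It codes for bisphosphoglycerate mutase, a relative of Pgam1 known for making 2,3-bisphosphoglycerate in red cells. Bpgm had 49 and 105 reads in resistant against 312 and 499 reads in normal tumour CAFs, giving a log2 difference of -1.49 ± 0.41 (adjusted p = 0.0162). Dropping normal replicate 1 ended the call (-1.61, adjusted p = 0.0693), as did dropping normal replicate 2 (-1.46, adjusted p = 0.116). On the erythroid list the haemoglobin genes had 0 reads in every library, and Alas2, of haem synthesis, had 15 and 1 against 7 and 8 reads. Bpgm made up 2.62% and 4.45% of the summed reads per kilobase with Pgam1 in resistant against 14.8% and 18.4% in normal tumour CAFs.

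Ldhb encodes the heart-type subunit of lactate dehydrogenase, which is known to favour lactate use, and Ldha the muscle-type subunit. Ldhb had 129 and 219 reads in resistant against 384 and 631 reads in normal tumour CAFs, giving a log2 difference of -0.64 ± 0.35 that did not pass (adjusted p = 0.202). Its value hung on the resistant libraries: it was -1.04 without replicate 2, where it passed (adjusted p = 0.0249), and -0.32 without replicate 1 (adjusted p = 0.311). The Ldha share was 90.9% and 86.4% in resistant against 75.9% and 70.4% in normal tumour CAFs, a difference of 15.5 percentage points with groups apart. Ldhd, a dehydrogenase of D-lactate, had 2 or 3 reads in each library.

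The remaining enzymes are the abundant ones: Gpi1 (glucose-6-phosphate isomerase), Aldoa, Tpi1 (triosephosphate isomerase), Pgk1 (phosphoglycerate kinase), Pgam1 (phosphoglycerate mutase), Eno1, Pkm (pyruvate kinase) and Ldha. All 8 were called higher, with log2 fold changes of 0.85 to 0.98, or 1.81 to 1.97 times. In Gpi1 reads were 1520 and 1616 in resistant against 1401 and 1758 in normal tumour CAFs, and in Aldoa 1647 and 1739 against 1461 and 1744. Tpi1 had 1427 and 1671 against 1297 and 1578 reads, and Pgam1 had 1458 and 1803 against 1434 and 1775. Eno1 had 2394 and 2509 against 2147 and 2487 reads. Each of the 5 thus had at least 1 normal library with as many reads as a resistant one. In Pkm reads were 2728 and 3013 in resistant against 2461 and 2919 in normal tumour CAFs, giving a log2 difference of 0.96 ± 0.22 (adjusted p = 0.00478). Pgk1 had 1863 and 2018 against 1794 and 2130 reads, and 0.85 ± 0.22 (adjusted p = 0.0119). Ldha had 1790 and 1944 against 1679 and 2092 reads, and 0.86 ± 0.22 (adjusted p = 0.0106). Read counts of these genes were thus alike in all 4 libraries, and the difference arises on scaling to library size. Splicing forms of Pkm, the M1 and M2 enzymes, are not separated in counts per gene.

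Within the normal group alone, where the label is the same, these 8 genes did not scale with depth. Normal replicate 2 held 1.41 times the reads of normal replicate 1, but 1.16 to 1.25 times as many reads in the 8 genes, so that all 8 had a lower CPM in the deeper library. Over the 4 libraries their highest count was 1.17 to 1.29 times their lowest, while the totals spanned 2.00 times. These genes lay at 0.546 to 1.18 reads per base of transcript, and no gene tested exceeded 1.39. For the 645 tested genes at 0.4 or more reads per base, a mark set after seeing the values, the ratio between the normal replicates had a median of 1.28, and 14.7% were called higher against 1.40% lower. Among the 254 genes at 0.6 or more, 18.5% were called higher and 0 lower, with a median log2 fold change of 0.41. Upward calls were about as common among the 7642 genes under 0.1 reads per base, at 18%, but there 15.8% were called lower. From 0.1 to 0.2 reads per base 10.5% were called higher and 14% lower, and from 0.2 to 0.4 9.95% and 9.19%. The part of read density or of library depth in the upward calls of the abundant members was not tested. Both normal libraries were deeper than both resistant ones, so depth and group cannot be told apart.

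**Figure D3:**
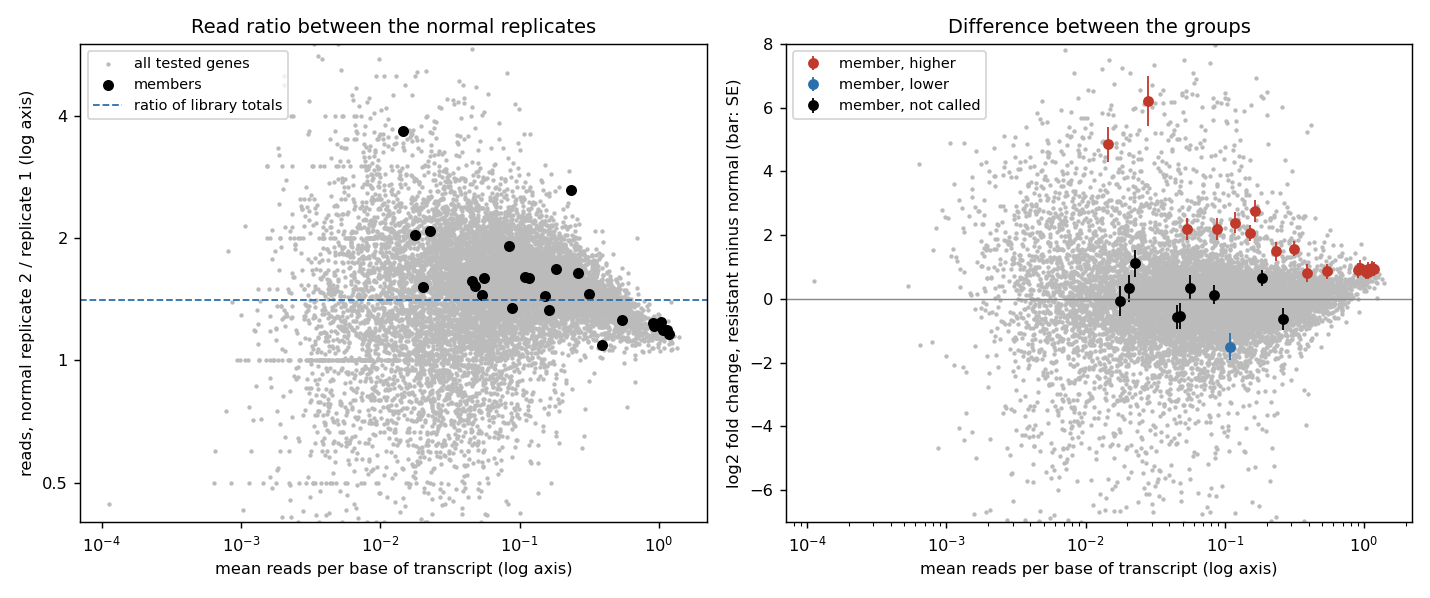
Left, reads in normal replicate 2 over normal replicate 1 (log axis) against mean reads per base of transcript (log axis) for all tested genes (grey) and members (black), with the ratio of library totals dashed. Genes with no read in a normal library or beyond the axis limits are not drawn. Right, log2 fold change with its SE for members called higher (red), lower (blue) or not called (black), over the other genes (grey). In both panels the abundant members gather at the dense end, with read ratios of 1.16 to 1.25 and log2 fold changes of 0.85 to 0.98.

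Offsets along read density were fitted to each library's deviation from the mean of all 4 libraries. They therefore also take out any difference between the groups that genes of like density share. With these offsets, 13 members were called higher and 1 lower. Of all genes tested, 16.2% were then called higher and 14.0% lower. The median log2 fold change of the members was 0.57. The calls of Aldoa, Pgk1, Pgam1, Eno1, Pkm and Ldha were lost, with log2 fold changes of 0.43 to 0.53 and adjusted p from 0.0516 to 0.113. Tpi1 kept its call at 0.60 (adjusted p = 0.0334) and Gpi1 at 0.68 (adjusted p = 0.0217), and Hk1 was now called higher (0.76, adjusted p = 0.0189). Without normal replicate 2, the deepest library, 9 members were called higher and 0 lower. Calls over all genes were also fewer there, 8.78% higher and 7.74% lower. The 10 lost calls were Bpgm (-1.46), Gapdh (0.58) and the 8 abundant enzymes, which stood at 0.67 (Pgk1) to 0.81 (Tpi1). Without normal replicate 1, Gpi1 was the only one of the 8 whose call was lost (adjusted p = 0.0625), at a log2 fold change of 0.92, no smaller than with all libraries. The shares of Aldoa, Eno1, Pgam1 and Ldha set a dense gene beside sparser ones, and the part of density in them was not tested. They did not differ in 1 direction. Resistant minus normal, the shares of Aldoa (-4.66 points) and Eno1 (-15.9) were lower and those of Pgam1 (13.1) and Ldha (15.5) higher. The tested transporters, hexokinases, Pfk and Pfkfb genes all lay under 0.4 reads per base.

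Gapdh, often used as a reference gene, had 549 and 545 reads against 536 and 586 reads. At 0.390 reads per base it lay just under the mark of 0.4, and it did not scale with depth either. Normal replicate 2 had 1.09 times the Gapdh reads of normal replicate 1, and a CPM of 98.6 against 132.8. Per kilobase Gapdh stood at 144 ± 4.41 CPM in resistant tumour CAFs, below its neighbours in the pathway, Tpi1 at 360 ± 30.9 and Pgk1 at 397 ± 12.3. Its log2 fold change of 0.82 ± 0.28 passed with adjusted p = 0.0426, close to the threshold. With read density offsets it still passed (0.74, adjusted p = 0.0427). It did not pass when normal replicate 1 was dropped (0.99, adjusted p = 0.242), nor when normal replicate 2 was (0.58, adjusted p = 0.613). It also missed where only library totals set the scale (0.69, adjusted p = 0.0818) and without a filter on low counts (0.77, adjusted p = 0.0528). The mouse genome holds many processed copies of Gapdh, and copies of other abundant glycolytic genes. How reads that map to several places were counted is not given in the sources used here, so these counts are uncertain.

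A stricter test asked for a log2 fold change beyond 1 (glmTreat). It called 8 members higher, where 8.88% of all genes tested were called higher and 6.99% lower. These were the same 8 genes whose raw reads were higher in both resistant libraries: Slc2a3, Pfkl, Pfkm, Pfkp, Pfkfb3, Aldoc, Eno2 and Eno3. The normal libraries were deeper, so higher raw reads already ask for a wide scaled difference in the same counts. The match between the lists is therefore not separate evidence. All 8 kept their call in each of the 16 settings that tested every one of them, and their median log2 fold change was 2.29. In the authors' deposited table, 6 of them are called upregulated, Slc2a3, Pfkm, Pfkp, Pfkfb3, Eno2 and Eno3. The statistics in the authors' deposited table are those of a test against a log2 fold change of 1, not 0, for 100% of its 6253 genes beyond 1.1 in size, so its calls compare with glmTreat alone. The authors' deposited table lists Pfkl with an adjusted p of 0.458 and Aldoc with 0.124, and has no member called downregulated.

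**Figure D4:**
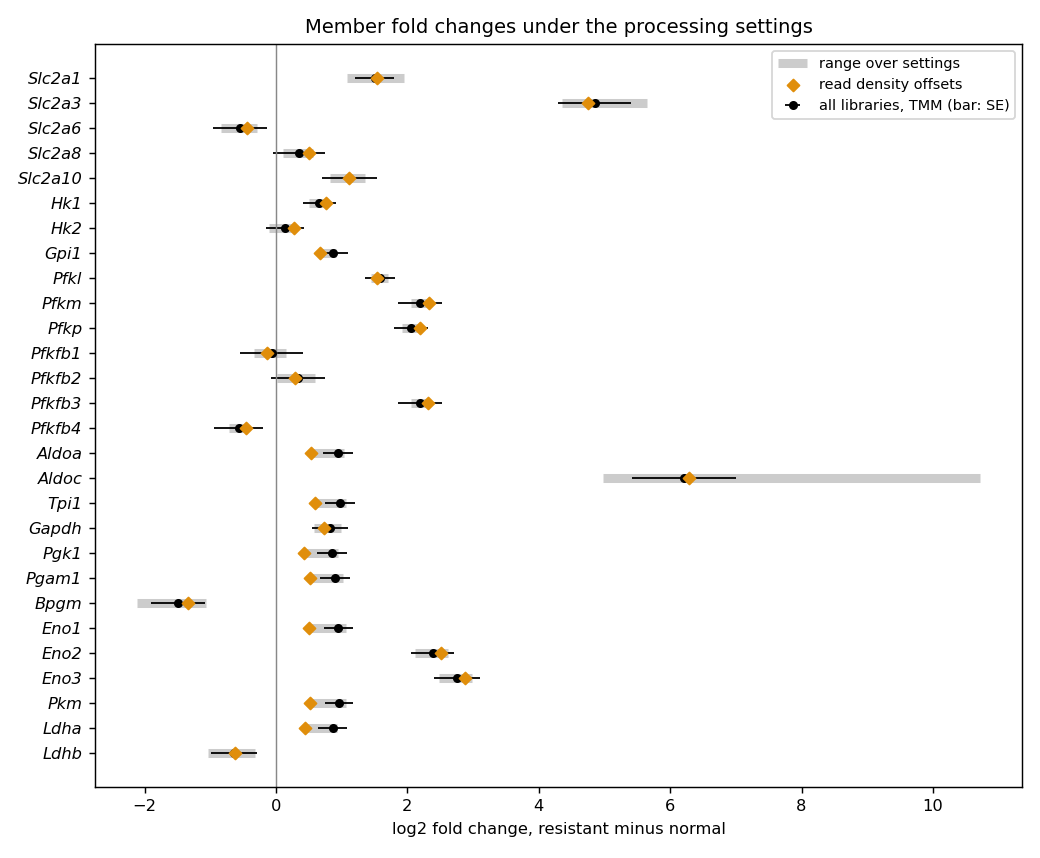
Log2 fold changes (resistant minus normal) of the 28 tested members with all libraries (black, bar SE), their range over the processing settings (grey) and the value with read density offsets (orange). The orange points of the abundant enzymes lie left of the black ones, at 0.43 to 0.68, while those of the Pfk genes, Eno2 and Eno3 stay close to theirs.

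Other genes of the pathway were read from lists chosen by name. Of 3 tested hexose transporters outside the members, Slc2a9, which carries urate and hexoses, rose by 2.07 ± 0.60 (adjusted p = 0.0207) on 8 to 24 reads. Of 3 tested further enzymes of the glycolytic steps, Adpgk, an ADP-dependent glucokinase, was lower, with 156 and 46 reads against 405 and 746 reads and a log2 difference of -1.57 ± 0.49 (adjusted p = 0.0285). Pklr, the pyruvate kinase gene of liver and red cells, had 1 read in all, and the germ-cell genes Pgk2 and Ldhc had 0. Of 15 tested genes of gluconeogenesis and sugar entry, 3 rose and 1 fell. The phosphoglucomutase gene Pgm2 rose by 2.30 ± 0.28 (adjusted p = 6.969e-05), Galm, a galactose mutarotase, by 1.93 ± 0.43 (adjusted p = 0.00433) and Pcx, pyruvate carboxylase, by 1.19 ± 0.38 (adjusted p = 0.0336). Gpd1, a glycerol-3-phosphate dehydrogenase, had 1 and 2 reads against 25 and 45 reads.

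Of 18 tested regulators of glucose uptake and glycolytic genes, 6 rose and 1 fell. Egln3, a prolyl hydroxylase induced by hypoxia-inducible factors, had 184 and 189 reads against 3 and 4 reads and rose by 6.57 ± 0.54 (adjusted p = 7.886e-06). Txnip, which restrains glucose uptake, had 989 and 1348 against 302 and 410 reads and rose by 2.60 ± 0.27 (adjusted p = 2.402e-05). Myc rose by 2.06 ± 0.25 (adjusted p = 6.928e-05), Mycn by 4.34 ± 0.74 (adjusted p = 8.075e-04) on 1 to 23 reads, and Arnt, the partner subunit of hypoxia-inducible factors, by 1.15 ± 0.25 (adjusted p = 0.00451). Hif1a itself, named after its value was seen, had 1755 and 882 reads in resistant against 1287 and 1936 reads in normal tumour CAFs, with a log2 fold change of 0.62 ± 0.30 that did not pass (adjusted p = 0.153).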

How the data were processed

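Groups and replicate numbers came from the sample titles. The labels describe both a TruSeq kit and SMART-seq2, which pre-amplifies cDNA by PCR, without saying which served these libraries. The authors deposited whole-number read counts per gene symbol, a signal table and a comparison table. The submitters' processing notes name HTSeq 0.7.2, Picard 1.62, TopHat2 2.1.1, bcl2fastq 2, DESeq2 and the build mm9. What each tool did, which annotation served, and whether reads sharing a position were removed is not given in the sources used here. Deposited signal values were the counts divided by 1 factor per library, and served only for that check. The log2 fold changes, p-values and the statistic (a score) in the authors' deposited table were used for the authors' calls alone.

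The test was that of edgeR 4.0.16 (R 4.3.3): filterByExpr (minimum count 10), trimmed mean of M values (TMM) scaling, quasi-likelihood F test with the group as only term, Benjamini-Hochberg adjustment over all 12001 genes tested, threshold 0.05. CPM use TMM-scaled library sizes of the tested genes. The limit set by a gene without reads, 3 counts, stood at 0.505 to 1.14 CPM. Intervals and floors cover counting error only. Transcript length is that of the longest protein-coding transcript of a gene (GENCODE M21, GRCm38), used as a length alone, found for 99.4% of tested genes and all 32 members; this was settled after the lengths, not the shares, were seen. Replicates differed by more than sampling noise (chi-square per gene 17.4 in resistant and 11.1 in normal libraries).

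As alternatives, scaling used upper-quartile factors, relative log expression or totals alone, filters were stricter or absent, and models were DESeq2 1.42.0, limma-voom (limma 3.58.1), a likelihood ratio test, a block on replicate number, offsets along read density or length (loess span 0.5), and each library left out. Chosen after seeing the files were glmTreat against a log2 fold change of 1, genes under 0.2 reads per base alone, and the union of all exons as length. A fit without 1 library assumes that the lone library of its group varies like the other group. Members and lists were chosen with earlier results of these data known. All listed members are named; of other lists, up to 5 called genes with the smallest adjusted p.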

Additional observations from a re-analysis of the deposited data

How the results depend on the processing

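Over 17 settings, the count of members called higher stayed within 1.5 times of 18, at 13 to 20, except without normal replicate 2 (9), with glmTreat (8) and among genes under 0.2 reads per base (7 of the 16 members left). Leaving out single libraries gave 9 to 19 members called higher and 0 to 2 called lower, and glmTreat called 0 lower. Of all 9845 genes tested under 0.2 reads per base, 1649 were called higher and 1637 lower. The replicate block gave 20 members called higher and 1 lower, adding Slc2a10 and Hk1. Calls over all 12001 genes tested also grew with the block, to 2257 higher and 2267 lower from 1857 and 1668. Same-numbered libraries deviated together over all genes at r = 0.217. With 2 pairs and no label that ties the numbers, they were not taken as pairs. The members' median log2 fold change was 0.57 with read density offsets and 0.79 with library totals alone, a scaling that moved the median of all genes to -0.14; without single libraries it lay between 0.74 and 0.97. No called member changed sign in any of these settings. Of the members not called, Hk2 was at -0.0016 with library totals alone and between -0.10 and 0.30 without single libraries, and Pfkfb1 between -0.34 and 0.16, with 0.080 without resistant replicate 2. The leading gene's share kept its direction in all 56 recomputed values, and 51 moved by less than the spread between replicates. The others were the Aldoa share difference, -8.06 points for reads without length scaling and -7.25 with the union of all exons as length, and, with that union, Pgam1 (9.62), Eno1 (-23.5) and Ldha (19.5). Depth limits the sparse members: the 4 that were not tested had 0 to 4 reads in a library.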
